A study of Mus musculus with 4 samples.

Results

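The 8 genes Tcf7, Lef1, Bcl11b, Satb1, Ikzf1, Ikzf3, Ets1 and Myb encode transcription factors of the T cell lineage, and the chromatin at these loci was described in CD4+CD8+ double-positive (DP) thymocytes that had or lacked Chaf1b. All 8 were found in the RefSeq gene table, out of 21887 protein-coding genes. They were listed by name, and the intervals taken were those within 1000 bp of an annotated gene end and those over the gene body with 50 kb on each side. Open DNA had been mapped with ATAC-seq, an assay whose transposase inserts adapters into accessible DNA, in DP thymocytes sorted from thymus of C57BL/6 mice. KO mice carried Cd4-cre with CHAF1bfloxp/floxp, and WT mice carried CHAF1bfloxp/floxp with no Cre named, so both groups had loxP sites in the gene for the p60 subunit of the histone chaperone CAF-1. Cd4-cre acts under control of Cd4 sequences, in thymocytes that express CD4. The labels give no ages. Each group had 2 replicates, pooled by the authors into 1 list of called regions, so nothing below has a replicate check and no test between KO and WT was made.

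These factors act in sequence and together in thymocytes. TCF-1 (Tcf7) and LEF-1 (Lef1) are HMG-box proteins that bind the same motif and act early in T cell specification, Bcl11b is the zinc finger factor of T lineage commitment, and Satb1 organises chromatin in thymocytes. Ikaros (Ikzf1) and Aiolos (Ikzf3) are related zinc finger proteins, Ets1 is the founding ETS family factor of lymphocytes, and c-Myb (Myb) sustains DP thymocytes. Promoters and distal enhancers of such genes are commonly open in the cells that express them, and CAF-1 deposits histones on newly replicated DNA.

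The KO list held 7645 regions and the WT list 15215. Reads at each summit, the tallest point of a region, were solved from the authors' fold enrichment and p, and the genome background was 1.03 reads in KO and 1.37 in WT. The depth behind the KO list was therefore 0.752 times that behind the WT list, and a site missing from it was not called, which is not a measure of closed chromatin. Regions lay at a gene end for 1 (KO) and 8 (WT) of 14 marker genes of DP thymocytes. For B cells, myeloid cells, and epithelium and stroma the KO counts were 0, 0 and 0 of 8 markers each, and the WT counts were 1 (Ebf1), 0 and 1 (Aire). Among all protein-coding genes, 21.1% had a KO region and 34.6% a WT region at an end. With 50 kb on each side of the gene body, regions lay at 10 (KO) and 14 (WT) of the 14 DP markers and at 6 (KO) and 7 (WT) of the 8 B cell markers. In that window myeloid markers had 3 (KO) and 3 (WT) of 8, and epithelial and stromal markers 4 (KO) and 4 (WT) of 8, where 53.1% of all protein-coding genes had a KO region and 69.0% a WT region. The part of other cell types in the lists was not tested.

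Promoter sequence for 6 of the 8 genes came from RefSeq (GRCm38.p6, the assembly behind mm10), in windows from 250 bases before to 50 after an annotated start. Ets1 and Ikzf3 were not matched. The Satb1 windows are shown because the first, chr17:51833241-51833540 on the minus strand, was the only one of the 15 matched windows that overlapped a called region, with 197 of its 300 bases inside a WT region. The second, chr17:51832598-51832897 (minus strand), belongs to a start further downstream and lay 176 bp from that region. The Bcl11b window, chr12:108003365-108003664 (minus strand), lay wholly inside the gene, 350 bp from the region at the start of that gene. The Tcf7 window, chr11:52282965-52283264 (minus strand), is shown as a CpG-rich window with no region called on it. It lay wholly inside the gene, downstream of the annotated 5′ end at 52283383. Capitals mark matches to any of the motifs spelled out below, on either strand, and each sequence reads 5′ to 3′ along the gene.
Satb1, first start: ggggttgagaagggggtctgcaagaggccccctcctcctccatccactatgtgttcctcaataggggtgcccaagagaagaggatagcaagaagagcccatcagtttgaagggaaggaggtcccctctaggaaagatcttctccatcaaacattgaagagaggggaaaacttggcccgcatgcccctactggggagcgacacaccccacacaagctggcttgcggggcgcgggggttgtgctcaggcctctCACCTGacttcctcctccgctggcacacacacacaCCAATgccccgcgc
Satb1, second start: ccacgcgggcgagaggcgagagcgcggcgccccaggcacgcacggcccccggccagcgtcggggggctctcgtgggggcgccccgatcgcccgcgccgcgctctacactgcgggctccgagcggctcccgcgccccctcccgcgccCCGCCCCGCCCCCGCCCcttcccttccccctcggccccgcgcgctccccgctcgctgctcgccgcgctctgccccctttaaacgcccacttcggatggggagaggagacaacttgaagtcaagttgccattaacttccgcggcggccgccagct
Bcl11b: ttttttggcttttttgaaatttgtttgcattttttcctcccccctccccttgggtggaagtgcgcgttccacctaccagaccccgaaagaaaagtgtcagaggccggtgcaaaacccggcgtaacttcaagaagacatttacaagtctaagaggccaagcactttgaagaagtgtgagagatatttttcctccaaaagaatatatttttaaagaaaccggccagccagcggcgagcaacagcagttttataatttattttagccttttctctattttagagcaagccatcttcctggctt
Tcf7: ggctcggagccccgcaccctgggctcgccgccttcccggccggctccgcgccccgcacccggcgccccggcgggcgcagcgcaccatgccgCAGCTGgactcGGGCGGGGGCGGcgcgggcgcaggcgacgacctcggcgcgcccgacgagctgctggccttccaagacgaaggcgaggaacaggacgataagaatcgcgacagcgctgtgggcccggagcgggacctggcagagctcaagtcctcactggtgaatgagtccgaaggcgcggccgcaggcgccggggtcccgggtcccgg

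No called region lay at an end of any of the 8 genes in KO, against 4 regions at 3 of the genes in WT. Over all protein-coding genes these shares were 21.1% in KO and 34.6% in WT. Where a protein-coding gene had a WT region at an end, a KO region was there too in 59.4% of cases. The share of WT regions at protein-coding gene ends with an overlapping KO region was 55.1%, against 0 of 4 here (exact Clopper-Pearson 95% interval 0 to 60.2%, which covers counting error only). With so few regions the interval holds the background share, and the shares of WT regions called in KO at the same numbers of reads sum to 1.11 regions.

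Bcl11b (chromosome 12, 107910403 to 108004145, minus strand) had no KO region at its 5′ end, against a WT region at 108004014 to 108004248 with a summit 19 bp inside the gene. Its fold enrichment, which is the authors' value over the local background, was 6.69 in WT, with 20 reads at the summit (exact Poisson 95% interval 12.2 to 30.9). Across all WT regions with 19 to 20 summit reads, 46.4% were also called in KO.

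Satb1 (chromosome 17, 51736187 to 51833290, minus strand) likewise had no KO region at either end, against WT regions at both. The WT region at its 5′ end, 51833073 to 51833437, had 17 reads and a fold enrichment of 5.56, with the summit 35 bp inside the gene. The other, at 51735522 to 51735777, lay 410 bp beyond the 3′ end, with 11 reads and a fold enrichment of 3.85. WT regions with 17 to 18 reads were called in KO in 35.2% of cases, and those with 11 to 12 reads in 12.3%.

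Ikzf3 (chromosome 11, 98464610 to 98546031) had no KO region at an end, against a WT region at its high-coordinate end, 98545855 to 98546083. That region held 13 reads in WT with a fold enrichment of 5.90, where 17.5% of all WT regions with 13 to 14 reads were called in KO. The other 5 genes, Tcf7, Lef1, Ikzf1, Ets1 and Myb, had no region within 1000 bp of an end in either list. Just outside this limit, a WT region in Lef1 at 131112021 to 131112229 had its summit 1.81 kb inside the 5′ end, with 14 reads, and it too had no KO counterpart.

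The 14 matched promoter windows without a region ranged from 2 to 52 CpG dinucleotides. Of these, 6 held 9 CpG or fewer (Lef1, Satb1, Ikzf1 and the single Bcl11b window), the class in which few windows of any gene overlapped a region. Of the 15 windows, which overlap in part for Lef1 and Satb1, 4 held 40 CpG or more. These were a Tcf7 window (45), a Satb1 window (45), an Ikzf1 window (52) and the Myb window (40), and 0 of the 4 overlapped a region in KO or in WT. Only the Myb window reached the annotated 5′ end of its gene. The Tcf7, Satb1 and Ikzf1 windows of these 4 lay wholly inside their genes, at starts further downstream. Among all promoter windows with 40 CpG or more, 22.9% overlapped a KO region and 41.6% a WT region. The Satb1 window inside a WT region had 8 CpG, and of all windows with 0 to 9 CpG, 1.74% overlapped a KO region and 3.44% a WT region. The region at Satb1 thus lay on a CpG-poor window beside a CpG-rich one.

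**Figure D1:**
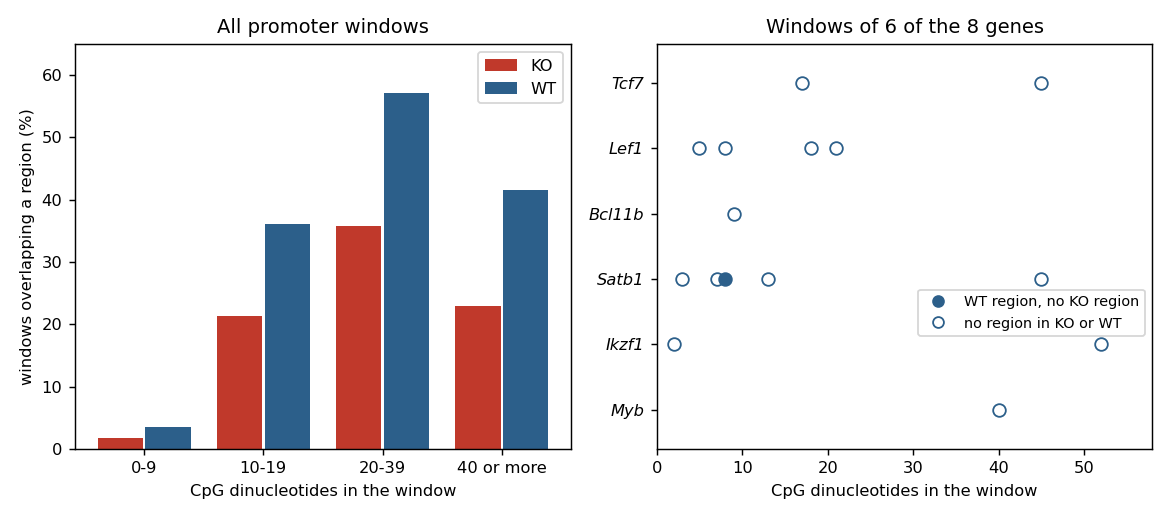
Left, the share of all 32851 RefSeq promoter windows of 300 bases that overlap a called region (y axis, %), by number of CpG dinucleotides (x axis), KO bars beside WT bars. Right, each window of 6 of the 8 genes by its CpG number (x axis): a filled point overlaps a WT region, an open point overlaps a region in neither list. A single Satb1 window is filled, and the 4 windows with 40 CpG or more are all open.

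Motif letters were searched on both strands of these windows. The GC box (GGGCGG) was in 8 of 15, and in 35.7% of all 32851 windows. The E box of this search (CAGNTG) was in 7, against 51.4% of all, the Ikaros motif (TGGGAA) in 5, against 25.6%, and the TCF/LEF motif (CTTTGNT) in 3, against 18.6%. The ETS motif (CCGGAAG) was in 1, a Tcf7 window, against 8.86%, the GATA motif (AGATAA) in 1 against 11.2%, and the CCAAT box (CCAAT) in 1 against 37.4%. The RUNX motif (TGTGGTT) and the MYB motif (AACTGNC) were in 0, against 5.27% and 12.8%. The palindromic form of the E box matches on both strands and is counted once per window. A site in overlapping windows is counted in each of them. This held for a TCF/LEF match in Satb1 and for an Ikaros and a GC box match in Lef1. In the first Satb1 window the matches were an E box at base 252 and a CCAAT box at base 287, both downstream of the annotated start.

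Over the gene bodies with 50 kb on each side, 10 KO regions and 34 WT regions were called. A KO region overlapped 9 of these WT regions (26.5%, 12.9 to 44.4), where the share was 46.2% over all WT regions and 46.4% over WT regions within such a window of any protein-coding gene. In the other direction, 9 of the 10 KO regions had a WT counterpart, against 92.6% of all KO regions. The WT regions here were weak, with a median of 14.5 summit reads against 18 over the whole WT list. When every WT region is given the share called in KO at its own number of reads, the 34 shares average 32.4% and sum to 11.0 regions, beside the 9 observed. The share depended on the lists taken. It was 66.7% (6 of 9) with the WT list limited to its 7645 highest folds, the length of the KO list, where 70.3% of all such regions were called in KO, and 0 of 8 at a -log10 q of at least 10 in both lists, where 37.9% of all were. No KO region over the 8 loci reached that -log10 q, so the share there could only be 0.

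**Figure D2:**
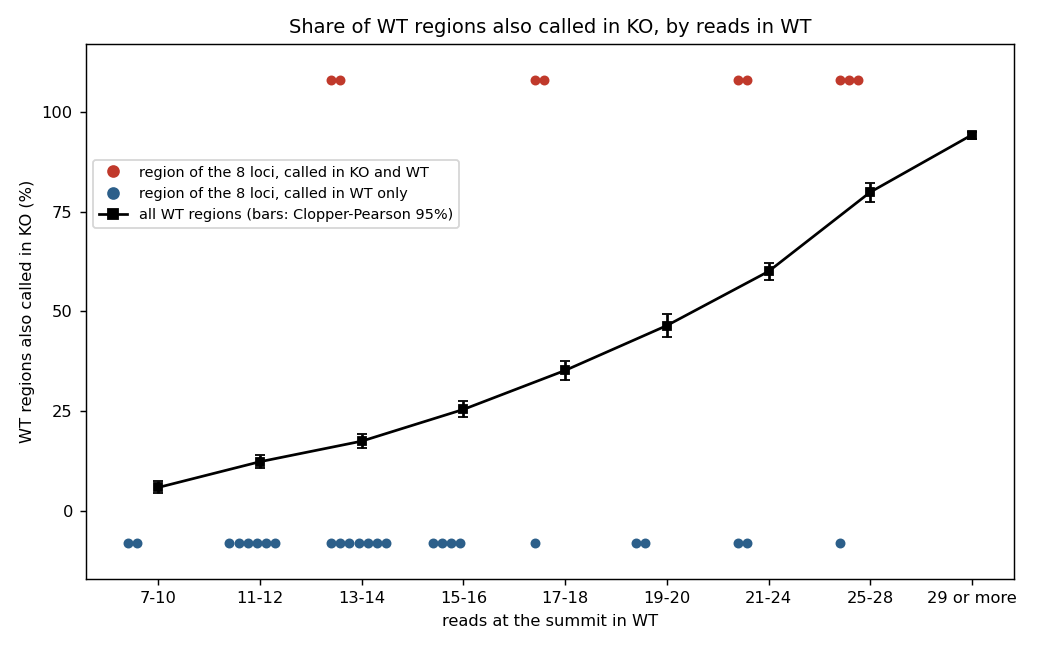
Share of all WT regions also called in KO (y axis, %) by reads at the WT summit (x axis), with exact Clopper-Pearson 95% intervals as bars. Points above are the 9 regions of the 8 loci called in KO and WT, and points below the 25 called in WT only. The curve climbs from 5.88% at 7 to 10 reads to 94.2% at 29 or more, and most WT-only points lie at 16 reads or fewer.

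By position, the regions fell inside the 8 genes, at or in their neighbours, and between genes. Inside the genes' own bodies, away from the ends, there were 4 KO and 14 WT regions, and 4 of the 14 were called in KO, where 37.1% of all WT regions in gene bodies were. At ends of neighbouring genes there were 4 KO and 6 WT regions, and 4 of the 6 were called in KO, where the share over all WT regions at protein-coding gene ends was 55.1%. Inside neighbouring genes, away from their ends, there were 1 KO and 2 WT regions, with no overlap between them. Of all WT regions in gene bodies away from ends, 37.1% were called in KO. The shares at the same numbers of reads sum to 0.298 regions for the 2. Between genes there were 1 KO and 8 WT regions, with 1 of the 8 called in KO, where the share over all intergenic WT regions was 40.2%. Of the 9 regions in both lists, 4 lay at the end of another gene and the other 5 lay inside the factor genes or, at Myb, between genes.

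In the TCF/LEF pair, Lef1 had regions in both lists and Tcf7 in WT only. Tcf7 (chromosome 11, 52246527 to 52283383) had 0 KO and 2 WT regions, an internal one at 52275452 to 52275754 with 15 reads in WT, and another at 52224099 to 52224298, 22.2 kb beyond the 3′ end, with 11. Of all WT regions, 25.4% of those with 15 to 16 reads and 12.3% of those with 11 to 12 were called in KO. The nearest KO region to the Tcf7 promoter windows was 113 kb away, a distance with no background value here. Lef1 (chromosome 3, 131110297 to 131224357) had 2 KO and 5 WT regions. Its strongest (131208492 to 131208785 in KO, 131208551 to 131208848 in WT) lay inside the gene, 98.3 kb (KO summit) and 98.4 kb (WT summit) from the 5′ end, with 17 reads in KO and 27 in WT and fold enrichments of 7.50 and 10.1. The counting intervals were 9.90 to 27.2 reads in KO and 17.8 to 39.3 in WT, and they overlap. The other Lef1 region in both lists was at the end of Hadh, a mitochondrial fatty acid oxidation enzyme gene, 47.6 kb beyond Lef1, with 13 reads in KO and 18 in WT. The 3 remaining internal Lef1 regions, with 13 or 14 reads in WT, were not called in KO. Of all WT regions with 13 to 14 reads, 17.5% were.

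Bcl11b and Satb1 were, with Tcf7, the genes with no KO region in the window. Over all protein-coding genes, 46.9% had no KO region in such a window. Bcl11b had 4 WT regions, all inside the gene or at its 5′ end, with 13 to 21 reads. The strongest internal one, at 107928007 to 107928399, had 21 reads in WT and a fold enrichment of 5.91, where 60.0% of WT regions with 21 to 24 reads were called in KO. The nearest KO region was 176 kb from the Bcl11b promoter window. Satb1 had 3 WT regions, and the strongest, 45.9 kb upstream of the gene at 51879222 to 51879481, had 21 reads and a fold enrichment of 6.96. Between 403 and 424 kb separated the Satb1 promoter windows from the nearest KO region. The distances at Bcl11b and Satb1 were not set beside those of other genes.

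Ikzf1 and Ikzf3, the Ikaros family genes, had the most KO regions of the 8, with 3 each. Ikzf1 (chromosome 11, 11684962 to 11772930, plus strand) had 3 KO and 6 WT regions, and all 3 KO regions had a WT counterpart. A pair lay inside the gene, about 31.9 and 41.2 kb from the 5′ end in KO. The first (11716673 to 11716898 in KO, 11716533 to 11717000 in WT) had 14 reads in KO and 14 in WT, with fold enrichments of 5.95 and 4.90. The second (11726028 to 11726424 in KO, 11726030 to 11726450 in WT) had 12 reads in KO and 21 in WT, with fold enrichments of 5.37 in both lists. The third was at the end of Fignl1, which encodes an AAA ATPase, 35.9 kb beyond Ikzf1 (11808796 to 11809330 in KO, 11808793 to 11809163 in WT), with 16 reads in KO and 25 in WT. The CpG-rich Ikzf1 promoter window lay 30.7 kb from the nearest KO region and 17.5 kb from the nearest WT region. These distances have no background value here.

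Ikzf3 had 3 KO and 5 WT regions, none of them inside the gene away from its ends. Those in both lists were at the ends of Zpbp2 (98550909 to 98551108 in KO, 98550973 to 98551454 in WT), with 10 reads in KO and 17 in WT, and of Ormdl3, a regulator of sphingolipid synthesis, with 12 in KO and 13 in WT. The KO region without a WT counterpart lay inside Mien1, 25.4 kb below Ikzf3 at 98438983 to 98439182. It had 8 reads and a fold enrichment of 3.98, and 1.64% of KO regions had a fold as low. A pair of WT regions at an end of Mien1, with 12 and 16 reads, had no KO counterpart. Of all WT regions, 12.3% of those with 11 to 12 reads and 25.4% of those with 15 to 16 had one.

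Ets1 (chromosome 9, 32636241 to 32757820) had 1 KO and 6 WT regions. The shared region lay inside the gene, at 32741112 to 32741337 in KO and 32740885 to 32741367 in WT, with 12 and 23 reads and fold enrichments of 5.04 and 6.74. The region with the most reads of all 34, 28 in WT (18.6 to 40.5), lay 19.9 kb below the low-coordinate end of Ets1 at 32616005 to 32616312, between genes. It had no KO counterpart, where 79.9% of all WT regions with 25 to 28 reads had. Its fold enrichment was 9.24 and its -log10 q 18.4. The other 4 WT regions of the locus had 12 to 19 reads. Elsewhere among the 8 loci, the WT regions with 25 to 28 reads, at Lef1 (27), Ikzf1 (25) and Myb (25), were all called in KO.

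Myb (chromosome 10, 21124930 to 21160984, minus strand) had 1 KO and 3 WT regions, all outside the gene. The widest of the 34 WT regions, 700 bp at 21092544 to 21093243, lay 31.7 kb beyond the 3′ end, between Myb and Ahi1, and was also called in KO over 277 bp at 21092654 to 21092930. It held 12 reads in KO and 25 in WT, with fold enrichments of 5.51 and 7.93. A WT region 25.8 kb upstream of the 5′ end (13 reads) and a region inside Ahi1 (12 reads) were not called in KO. Of all WT regions, 17.5% of those with 13 to 14 reads and 12.3% of those with 11 to 12 were.

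**Figure D3:**
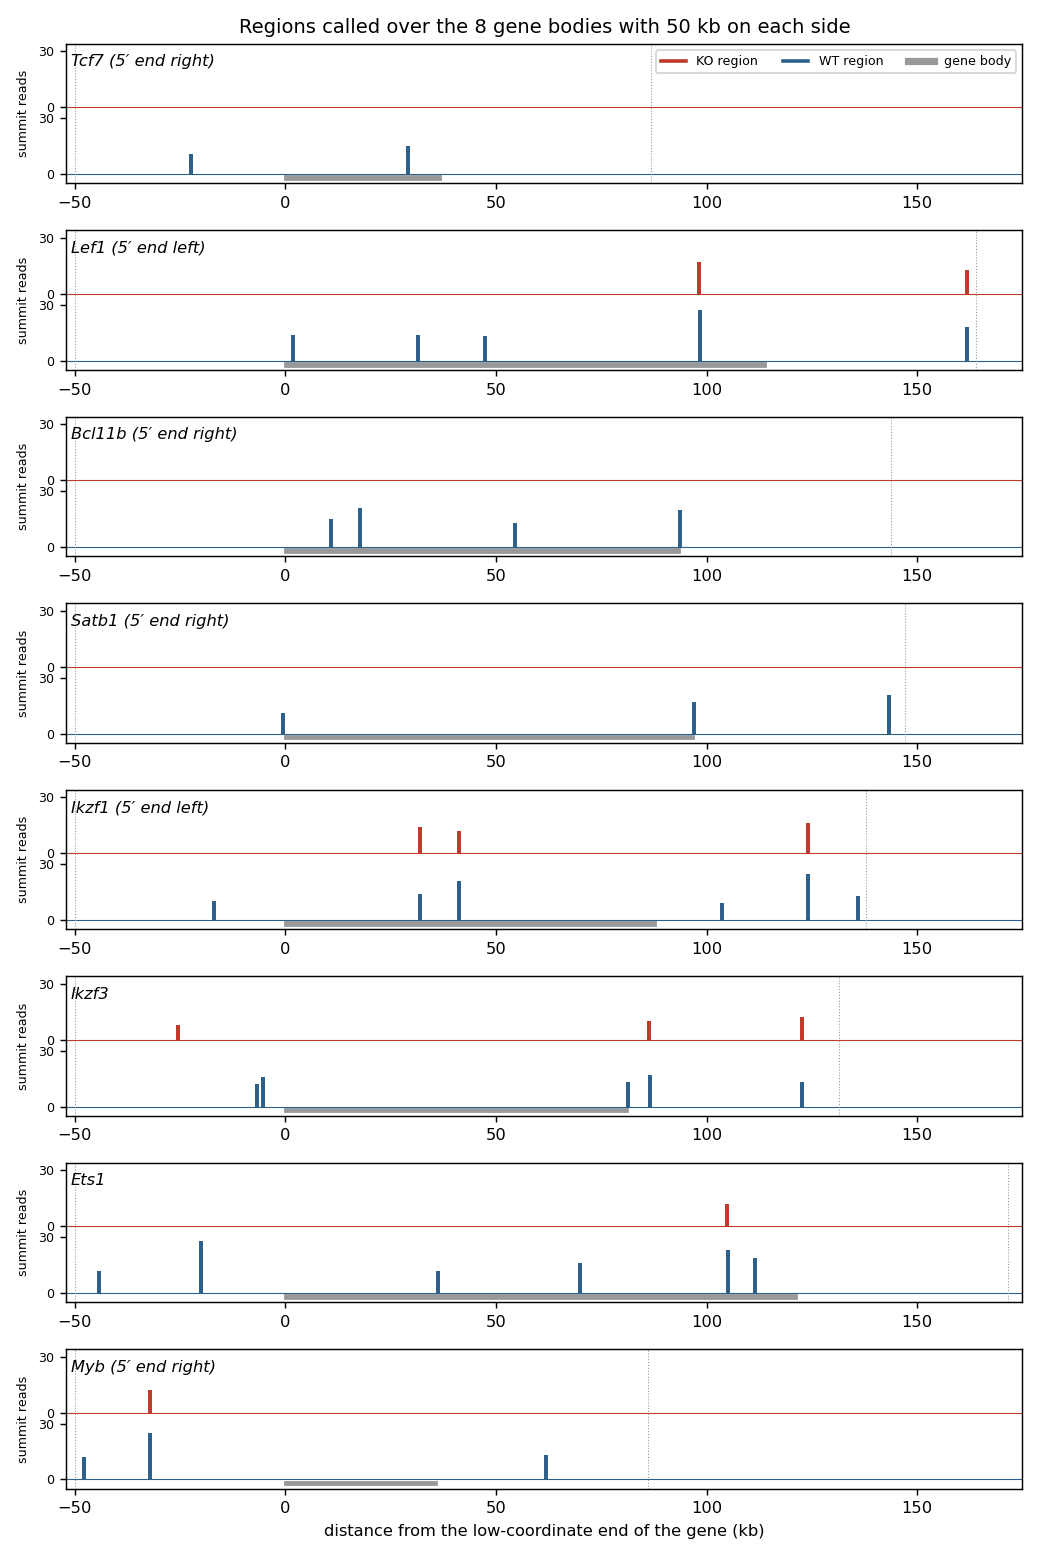
Map of each locus, with distance from the low-coordinate end of the gene in kb (x axis) and reads at the summit (y axis, drawn from a KO line above and a WT line below). Grey bars are gene bodies and dotted lines the limits of 50 kb. Tcf7, Bcl11b and Satb1 have WT bars and no KO bar. Of all protein-coding genes, 46.9% had no KO region in such a window.

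The 9 regions in both lists held 118 KO and 183 WT summit reads in sum. KO thus had 39.2% of them (33.7 to 45.0), an interval that holds the 42.9% the depth of the lists alone gives. All 7026 WT regions in both lists had 40.4% of their reads in KO. The KO share was below the depth share in 7 of the 9 regions, as it was in 68.6% of all regions in both lists. It was lowest at the Myb region (32.4%, 18.0 to 49.8) and highest at the first Ikzf1 region (50.0%, 30.6 to 69.4). Sites with too few KO reads to be called have no place in this comparison.

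**Figure D4:**
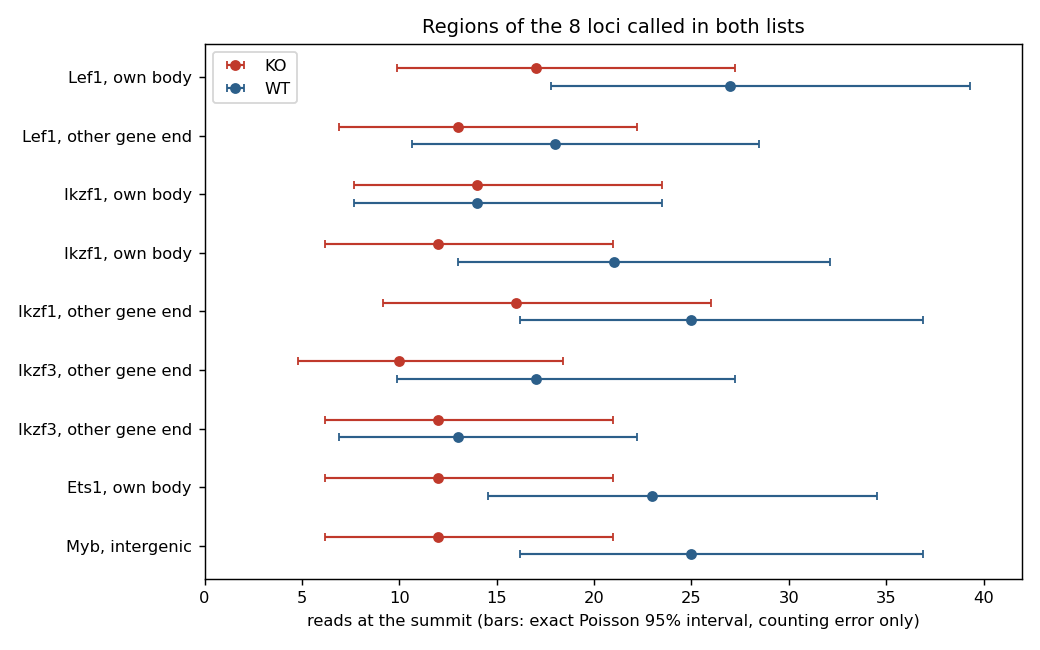
Reads at the summit (x axis) of the 9 regions called in both lists, KO above WT in each row, with exact Poisson 95% intervals as bars. KO values lie between 10 and 17 and WT values between 13 and 27, and the bars of KO and WT overlap in every row.

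Region density set the 8 loci above the typical gene in WT. The median was 0.593 KO and 2.27 WT regions per 100 kb over the 8 loci, against 0.473 KO and 0.958 WT over all protein-coding genes. Paralogs of the 8 genes (0.497 KO, 1.36 WT) and other T lineage regulators (0.682 KO, 1.59 WT) also had medians above those of all genes. In KO the median of the other regulators was above that of the 8. In WT the densities went from 1.46 (Tcf7) to 3.19 (Ikzf1), and all 8 were above the median gene. In KO the highest values were 1.65 (Ikzf3) and 1.60 (Ikzf1), and Tcf7, Bcl11b and Satb1 had 0, as had 46.9% of all protein-coding genes. These densities were not tested.

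The paralogs of the 8 genes and other regulators of T cell development were set beside them in the same windows. Over the loci of 17 paralogs, 13 of 38 WT regions were called in KO (34.2%, 19.6 to 51.4), with 15.6 as the sum of shares at equal reads. Over 24 other regulators it was 36 of 85 (42.4%, 31.7 to 53.6), with a sum of 36.4. All 3 intervals overlap one another. At gene ends, 5 of the paralogs had a region in both lists, 5 in WT only and 7 in neither. Over all protein-coding genes, 21.1% had a KO region and 34.6% a WT region at an end. Of those with a WT region there, 59.4% had a KO region too. The paralogs in both were Mybl2 (fold 6.30 in KO, 12.7 in WT) and Mybl1 (5.60 in KO, 8.84 in WT), the relatives of Myb, Gabpa (7.38 in KO, 10.1 in WT) and Elf2 (5.66 in KO, 3.55 in WT), which are ETS factors, and Ikzf5 (6.19 in KO, 8.72 in WT). Those in WT only were Tcf7l2 (4.79), Bcl11a (4.58), Ets2 (4.60), Elf1 (6.00) and Elf4 (6.32).

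Of the 24 other regulators, 3 had a gene-end region in both lists, 5 in WT only, 1 in KO only and 15 in neither. The shares over all protein-coding genes were again 21.1% in KO and 34.6% in WT, with 59.4% of genes with a WT region also called in KO. In both were Nfatc3 (fold 8.94 in KO, 6.08 in WT), a calcium-regulated factor, Tox (5.90 in KO, 9.21 in WT) and Tcf3 (4.80 in KO, 7.25 in WT), which encodes E2A. In WT only were Notch1 (6.52), Cbfb (6.20), the partner of Runx factors, Runx3 (5.70), Patz1 (5.66) and Gfi1 (4.11). In KO only was Id3 (4.93), an inhibitor of E proteins. Of all KO regions, 92.6% overlapped a WT region. A fold of 5.04 or less was found in 11.7% of KO regions, so the Id3 region was among the weaker ones.

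Widening the window to 200 kb on each side of the 8 gene bodies took in 20 KO and 63 WT regions. Of the 63, 17 were called in KO (27.0%), beside a sum of 21.4 for the shares at equal reads, and 46.0% of WT regions in such windows of all protein-coding genes were called in KO. For the paralogs it was 38 of 98 (38.8%, sum 41.6) and for the other regulators 73 of 191 (38.2%, sum 83.9). Most WT regions of the Ets1 locus also lay within 200 kb of Fli1 and were counted for the paralogs too. Without regions at ends of other genes, 5 of 28 WT regions were called in KO (17.9%, sum 8.97), 4 of the 28 being at the ends of the 8 genes themselves. The share over all WT regions away from protein-coding gene ends was 38.5%. The paralogs had 8 of 23 (34.8%, sum 8.26) and the other regulators 25 of 66 (37.9%, sum 26.3). The differences between the lists were not tested.

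By number of regions in both lists and fold at a gene end, other genes shared the patterns of the 8. Likeness was the Euclidean distance over 4 standardised values from the 2 lists, among 19954 genes. The closest to Satb1 was Cfap157 (distance 0, 0 KO and 3 WT regions, fold 5.56 at an end in WT), to Bcl11b it was Scn4b (0 KO and 4 WT regions, fold 6.69 in WT), and to Ikzf3 it was Slc35e2 (3 KO and 5 WT regions, fold 5.88 in WT). For the genes with no region at an end the closest were tied at distance 0, with 31 genes tied for Ets1, 32 for Ikzf1, 113 for Lef1, 467 for Myb and 546 for Tcf7.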

How the data were processed

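ATAC-seq of DP thymocytes came from 4 samples, 2 KO and 2 WT, and per the labels each deposited list holds both replicates of its group. MACS2 2.1.4, deepTools 3.4.1, Bowtie2, Trim Galore, FastQC, Picard and GATK were named with build mm10, per the submitters' processing notes. Not given in the sources used here are their order and settings, any shift of reads for the transposase and any removal of duplicates. The authors deposited per region a score, the fold enrichment at the summit (a ratio to local background), and p and q as -log10. These are the authors' values and were used only to describe regions. The score and the summit lists added nothing.

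Summit reads were solved from fold, as (reads + 1) / (background + 1), and p, as a Poisson tail. The solved values gave the deposited -log10 p back within 0.001 on 100% of lines. The most frequent background gave relative depth; library totals were not used here. Solver and overlap were tested on simulated data. Regions were matched by an overlap of at least 1 bp. Gene ends and bodies came from RefSeq GRCm38.p6, strand from its promoter table for 6 of the 8 genes, while exons and introns were not set apart. Classes and neighbours refer to protein-coding genes. Shares carry Clopper-Pearson and reads Poisson 95% intervals, which cover counting error and not the spread between mice. All 8 genes are named with their regions; of the other lists, those with a gene-end region in 1 list only and the 3 highest WT folds, with the remaining ones in both lists added after their values were seen. The 8 genes, the lists and the tests were chosen with earlier results of these data known. The grouping by summit reads, the CpG classes and the sum of shares were added after the data were seen. Computation was in Python 3.11.15 with scipy 1.17.1, pandas 2.3.3, numpy 2.4.6 and matplotlib 3.10.9.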

Additional observations from a re-analysis of the deposited data

How the results depend on the processing

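The 6 shares were recomputed in 82 alternatives. In 15 of them the gene-end share could only be 0%, because no KO region lay within the window. Of the other 67, 58 stayed inside the main interval, among them 0 of 5 regions at gene ends with a window of 2000 bp, which also held no KO region. Leaving out Tcf7, Bcl11b or Satb1, which had no KO region, could not move the share of KO regions or the KO share of reads. Leaving out regions with high local background removed none of the regions counted, so it could not move a share either. Outside gene ends, those settings are among the 58. For the locus regions of the 8 genes the share called in KO was 0% (0 of 8) at a -log10 q of at least 10 in both lists, where 37.9% of all WT regions were called in KO, and 66.7% (6 of 9) with the WT list limited to its 7645 highest folds, where the share of all was 70.3%. At that -log10 q the paralogs had 53.8% and the other regulators 26.7%, and with the limited WT list 73.3% and 75.0%. The share of KO regions with a WT region was 50.0% when the overlap had to cover 50% of both regions, 100% with flanks of 10 kb and 100% without Ikzf3. The only KO region without a WT counterpart lay 25.4 kb below Ikzf3. Flanks of 10 kb and leaving out Ikzf3 both removed it, so those settings had to give 100%. The 0 of 8 was likewise fixed, as no KO region reached that -log10 q. The cause of the other shifts was not tested. Leaving out each gene in turn gave 21.4 to 30.0% for locus regions, 85.7 to 100% for KO regions with a WT region and 38.2 to 40.2% for the KO share of reads. At a -log10 q of at least 10 no KO region was left over the 8 loci, so no share of KO regions or reads could be given. No paired analysis was possible because each group had a single list made from both replicates, and for the same reason no replicate could be left out. WT regions with 7 to 10 reads were called in KO in 5.88% of cases, so a weak WT region missing from the KO list is not shown to be lost.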

Other observations

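Local background, the reads around a summit that the caller sets the fold against, can be read beside the summits. At the 9 regions of the 8 loci in both lists, the ratio of KO to WT background ran from 0.458 at the second region inside Ikzf1 to 0.972 at the end of Hadh, with a median of 0.738. It was below the depth ratio of 0.752 at 6 of the 9. Over all 7026 WT regions in both lists the median was 0.691, and 67.3% were below. At the second Ikzf1 region the local background was 1.42 reads in KO and 3.10 in WT, so that 12 KO and 21 WT reads gave the same fold of 5.37. These values have no replicate check.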
